A study of Gallus gallus with 6 samples.

Results

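Early and late growth are 2 phases in the regrowth of a feather, and each was sampled separately. The comparison between them was made over all genes in the papilla ectoderm, with 4 of the 6 libraries of the series. The papilla ectoderm is the sheet of epidermis that wraps the dermal papilla at the base of a feather follicle. The samples, which the labels call epidermal progenitor cells, came from contour feather follicles of adult male White Leghorn chickens aged 6 months to 1 year, whose feathers had regrown for 3 weeks (early growth phase, 2 libraries) or 7 weeks (late growth phase, 2 libraries). The 2 libraries of the resting phase, at 10 weeks, entered the statistical model and are quoted only where they place a value. The tissue had been freed from the dermal papilla with EDTA, no group carried a transgene or a drug treatment, and the labels give the same batch for every library. The sources used here do not say whether the 2 libraries of a phase came from separate birds, so that p values measure the spread between these libraries, which may be technical.

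The base of a growing feather holds epithelial progenitor cells that divide, move upward and then differentiate into barbs, sheath and other keratinized tissue. Basal epithelial cells carry KRT5, KRT14, KRT15, TP63 and integrins, whereas differentiating cells switch to other alpha-keratins, the proteins of intermediate filaments, and to corneous proteins encoded in the epidermal differentiation complex, a cluster of genes whose products harden the cell. Cells of the dermal papilla, pulp and vessels lie against this sheet and send it growth factors.

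Values are TPM, the unit the authors deposited, which divides the reads of a gene by its length and scales the genes of a library to 1 fixed total, so a gain in one set lowers the share of the others. Read counts were not used here and the depth of each library is unknown. The label of the tissue was checked first. The identity markers of keratinocytes were abundant in all 4 growth libraries: KRT5, a basal keratin, stood at 4832 and 5387 TPM in early growth and 3962 and 4126 TPM in late growth, and EPCAM, a cell surface adhesion molecule of epithelia, at 505 and 563 TPM and 517 and 511 TPM. Transcripts of other cells were scarce but not equal. 30 tested markers of fibroblasts and dermal papilla took 0.387 and 0.391% of TPM in the early libraries and 0.0601 and 0.0637% in the late ones, and all 30 fell. Of 23 smooth muscle markers 20 fell, of 22 endothelial markers 19, and of 22 leukocyte markers 9. The leukocyte list went from 0.0706 and 0.065% to 0.0114 and 0.0113% of TPM. In bulk tissue, fewer cells of a type and less RNA per cell cannot be told apart. Ribosomal RNA genes (37 in the file) took 0.357 and 0.392% of TPM in the early libraries and 1.57 and 1.7% in the late ones. With TPM rescaled without them, an alternative chosen after seeing the data, 696 genes rose and 3572 fell, close to the counts given next.

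**Figure D1:**
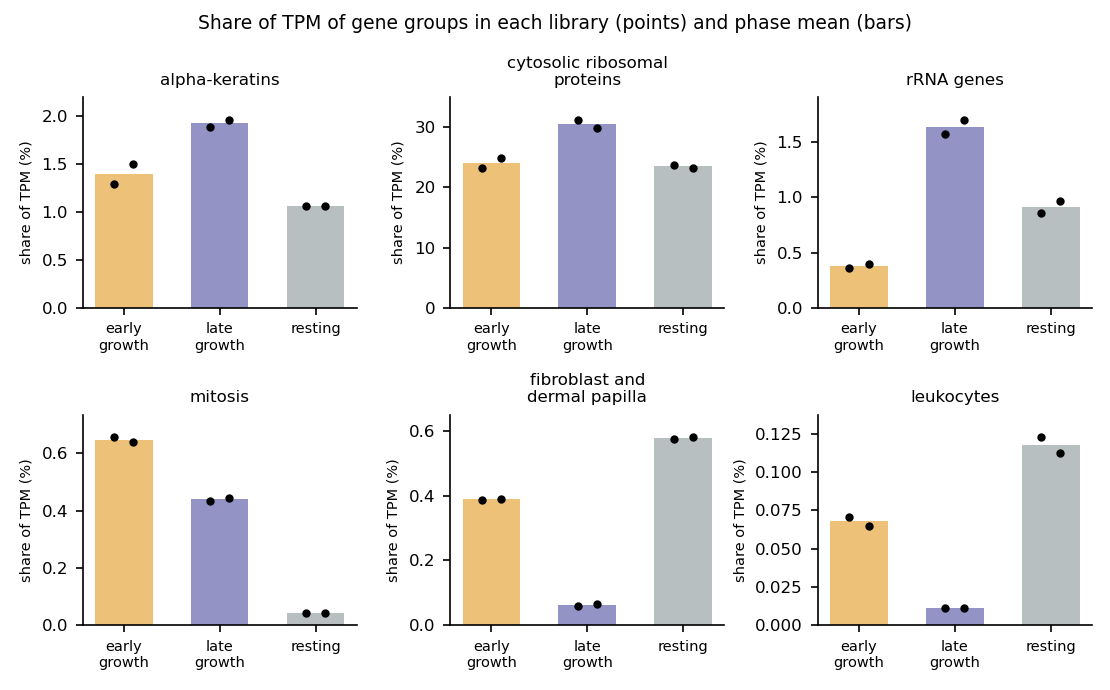
Share of TPM (%) of 6 gene groups in each of the 6 libraries; points are libraries and bars the mean of a phase. Alpha-keratins, cytosolic ribosomal proteins and rRNA genes took a larger share in both late growth libraries than in both early growth libraries, and mitosis genes, fibroblast markers and leukocyte markers a smaller one.

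The comparison asks what the papilla ectoderm changes while the feather is still growing. Of 13063 genes tested, those whose mean over the 6 libraries exceeded 1 TPM, 684 rose (5.24%) and 3710 fell (28.4%) from early to late growth at an adjusted p under 0.05 by limma on log2(TPM + 1), the source of every adjusted p given here. The genes that rose took 26.3 and 27.2% of TPM in the early libraries and 41.4 and 40.6% in the late ones, and those that fell 29.3 and 30.1% and 17 and 16.9%. These 2 sets were picked by their direction in the same libraries, so their shares were bound to move this way. A measure that does not use the calls also showed more of the transcripts in fewer genes in late growth. The 100 most abundant genes of a library held 32.6 and 34.5% of TPM in the early libraries and 43.6 and 42.1% in the late ones. Over all tested genes the median was −0.31 on the log2 scale, so a gene or list at this value only followed the bulk. After median-of-ratios scaling, which brings this median to −0.01, 1728 genes rose and 1965 fell. That scaling moves nearly all genes upward, so that it kept all 684 rises, and it kept 1965 of the 3710 falls. Quantile normalization kept 633 of the rises and 1790 of the falls. A small fall thus depends on the scaling, and so do part of the rises. For this reason each list below is given with its counts beside those under median-of-ratios scaling, and its median is to be read against −0.31. The counts also lean on single libraries: without late growth replicate 1, 246 genes rose and 1499 fell, and without late growth replicate 2, 230 and 1587. Rises numbered 1588 without early growth replicate 1, 450 without resting replicate 1 and 448 without resting replicate 2. The range in parentheses after a list's count is its lowest and highest value with 1 library left out. In each such range the lowest value came, alone or tied, without late growth replicate 1 or 2, and a number of rises over 1.5 times the full count came without early growth replicate 1. The residual SD on the log2 scale was 0.56 in early growth, 0.27 in late growth and 0.36 at rest. A fit without a late growth library thus loses the pair with the smallest spread, and a call can be lost there while the fold change stays. HEPHL1, described below, had a log2 fold change of 3.58 in the full fit and 3.60 and 3.55 without late growth replicate 1 and 2. For every gene named below as rising or falling, the values of the 2 phases did not overlap. The smallest two-sided p that exact permutation of 2 against 2 libraries allows for a single gene is 0.333.

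**Figure D2:**
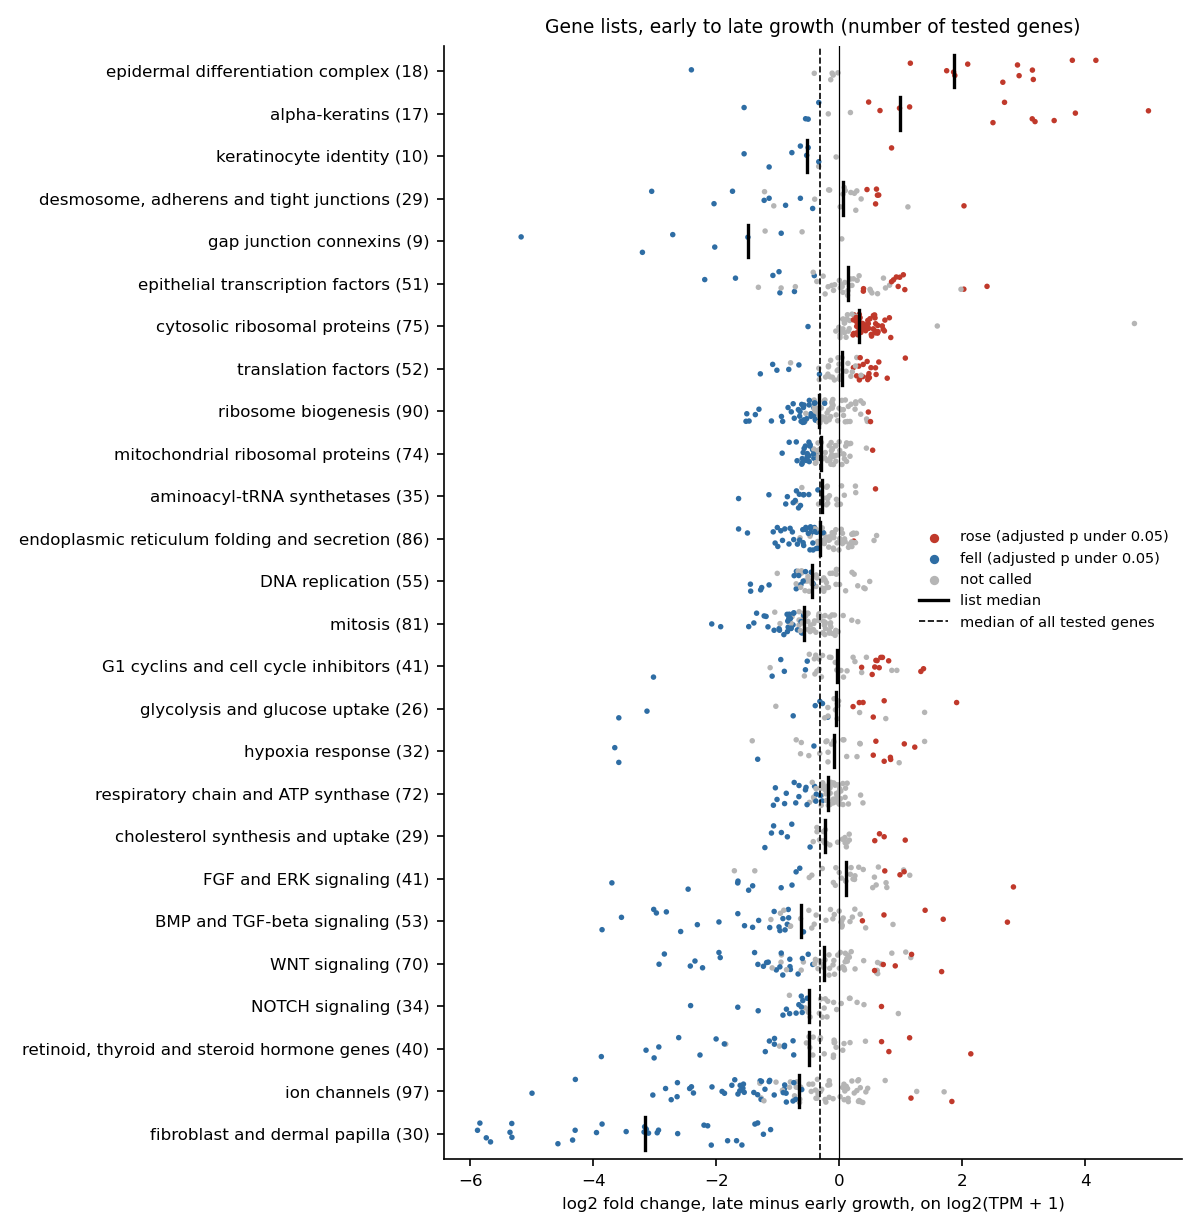
Log2 fold change from early to late growth on the log2(TPM + 1) scale for the tested genes of 26 lists; each point is a gene, red where it rose, blue where it fell and gray where it was not called, the black bar is the list's median, and the dashed line the median of all tested genes (−0.31). The epidermal differentiation complex and the alpha-keratins lie to the right, the cytosolic ribosomal proteins form a narrow group above 0, and mitosis, the connexins and the fibroblast markers lie to the left of the dashed line.

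Most alpha-keratins outside the basal layer were higher in late growth. Of 17 tested alpha-keratins 11 rose (8 to 12) and 4 fell (2 to 4), with a median of 0.98; under median-of-ratios scaling 11 rose and 1 fell. KRT75L2, a type II keratin of the KRT75 family whose members build feather rachis and barbs, stood at 258 and 669 TPM in the early growth libraries and 5708 and 6198 TPM in the late growth libraries (log2 fold change 3.84, standard error 0.41, adjusted p = 0.00176). In late growth it lay above KRT5, the most abundant basal keratin. Its relative KRT75L1 stood at 149 and 222 TPM and 1139 and 1212 TPM (log2 fold change 2.68, standard error 0.19, adjusted p = 0.000437), and KRTC42L, a type I keratin, at 78.3 and 277 TPM and 2334 and 2464 TPM (log2 fold change 4.01, standard error 0.53, adjusted p = 0.00349). For all 3 genes early growth replicate 2 lay above replicate 1, and the late growth libraries lay far above both. KRT71, known in mammals from the inner root sheath of the hair follicle, was measured at 73.6 and 120.4 TPM and then at 797 and 876 TPM (log2 fold change 3.14, standard error 0.22, adjusted p = 0.000434). KRT10, the type I keratin of suprabasal epidermis, stood at 14.9 and 26.1 TPM and 223 and 243 TPM (log2 fold change 3.49, standard error 0.24, adjusted p = 0.000428). KRT9L went from 0.148 and 0 TPM to 32 and 35.8 TPM (log2 fold change 5.03, standard error 0.23, adjusted p = 0.000123), and KRT75 was listed at 0 in both early growth libraries and at 8.79 and 7.4 TPM in late growth (adjusted p = 0.000796). Each of these 7 keratins rose under every alternative that was run. Keratins share long stretches of sequence, and how reads of near-identical copies were divided among them is not stated in the sources at hand, so the split between KRT75, KRT75L1 and KRT75L2 is uncertain.

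Basal keratins and their partners fell or were not called. Of the 10 keratinocyte identity markers 1 rose and 7 fell (6 to 7), and 3 fell under median-of-ratios scaling. KRT15, a keratin of basal and stem-like cells, stood at 455 and 518 TPM in early growth and 162 and 169 TPM in late growth (log2 fold change −1.55, standard error 0.08, adjusted p = 0.000151). CDH3, or P-cadherin, a cell adhesion protein of basal and matrix cells, stood at 379 and 362 TPM and 173 and 161 TPM (log2 fold change −1.14, standard error 0.08, adjusted p = 0.000438). ITGB4, the hemidesmosome integrin that ties basal cells to the basement membrane, stood at 256 and 276 TPM and 153 and 157 TPM (log2 fold change −0.77, standard error 0.07, adjusted p = 0.00125). These 3 fell under every alternative. Falls of KRT14 (log2 fold change −0.51), COL17A1 (−0.53), CDH1 (−0.63) and KRT5 (−0.34) were small, and none was called under median-of-ratios scaling (adjusted p = 0.308, 0.167, 0.106 and 0.969). KRT5 was also not called without late growth replicate 1 (adjusted p = 0.0748), without late growth replicate 2 (adjusted p = 0.0523) or without a variance trend (adjusted p = 0.108). EPCAM (log2 fold change −0.05, adjusted p = 0.601) and ITGA6 (−0.34, adjusted p = 0.0825) were not called. TP63, the transcription factor that maintains stratified epithelium, was the only one of the 10 to rise, from 273 and 267 TPM to 474 and 499 TPM (log2 fold change 0.85, standard error 0.06, adjusted p = 0.000503). It did so under every alternative.

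Most tested corneous genes rose, but the share of TPM of the whole complex overlapped between the phases. It was 0.2428 and 0.2635% in the early libraries and 0.2676 and 0.2412% in the late ones. Of 32 genes of the complex in the file, 18 passed the filter on the mean. Members near 0 TPM in early growth and at rest could pass it only through late growth, so they could enter only as rises. Of 18 tested genes of the epidermal differentiation complex 12 rose (4 to 11) and 1 fell, with a median of 1.87; the counts under median-of-ratios scaling were 12 and 1. The lowest count, 4, came without either late growth library. EDCH2, a cysteine- and histidine-rich protein gene of the complex, was listed at 0 in both early growth libraries and in both resting libraries, and stood at 15.5 and 10.5 TPM in late growth (adjusted p = 0.000928). EDWM, which was chosen after its values were seen, had the same pattern, with 0 TPM in early growth and 6.5 and 6.66 TPM in late growth (adjusted p = 0.00176). EDCH4 stood at 1.75 and 0 TPM and 26.9 and 31 TPM (log2 fold change 4.17, standard error 0.74, adjusted p = 0.00885) and EDCH3 at 1.41 and 0 TPM and 15.5 and 10.6 TPM (log2 fold change 3.15, standard error 0.49, adjusted p = 0.00565). EDQM1 went from 1.28 and 0.253 TPM to 9.82 and 13.6 TPM (log2 fold change 2.90, standard error 0.45, adjusted p = 0.0059) and EDQM2 from 2.17 and 0.504 TPM to 15.4 and 21.5 TPM (log2 fold change 3.14, standard error 0.73, adjusted p = 0.0217). None of these genes reached 40 TPM in any growth library, so they stayed rare beside the keratins. The calls of EDCH4, EDCH3, EDQM1 and EDQM2 were each lost with a library left out: EDCH4 without late growth replicate 1 (adjusted p = 0.0694), without late growth replicate 2 (adjusted p = 0.0746) or at a pseudocount of 0.1 (adjusted p = 0.0639), EDCH3 without late growth replicate 1 (adjusted p = 0.0619), EDQM1 without late growth replicate 2 (adjusted p = 0.0617) and EDQM2 without early growth replicate 2 (adjusted p = 0.0895), without late growth replicate 1 (adjusted p = 0.108), without late growth replicate 2 (adjusted p = 0.138) or at a pseudocount of 0.1 (adjusted p = 0.126). EDMTFH was the one member that fell, from 3.31 and 5.52 TPM to 0 in both late growth libraries (adjusted p = 0.00553). Its fall was not called without late growth replicate 1 (adjusted p = 0.051). S100A11, a calcium-binding protein and the most abundant member, stood at 1344 and 1500.1 TPM and 1339.8 and 1237 TPM and was not called (adjusted p = 0.188). S100A11 was called lower after quantile normalization (−0.36, adjusted p = 0.00602).

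A pair of unnamed genes gained more transcripts than any corneous gene with a symbol, and they are given here because of their size, chosen after their values were seen. LOC772080 stood at 265 and 879 TPM in early growth and 7202 and 7437 TPM in late growth (log2 fold change 3.92, standard error 0.50, adjusted p = 0.00315). LOC769486 stood at 36.1 and 140.4 TPM and 2929 and 2756 TPM (log2 fold change 5.29, standard error 0.59, adjusted p = 0.00207), with at most 0.523 TPM in the resting libraries. Both showed the early growth order of the KRT75-like genes, with replicate 2 above replicate 1. In the RefSeq gene table of GRCg7b, a later assembly than the GRCg6a of the files, both are protein-coding genes. LOC772080 lies there in the row of type I keratin genes, next to KRT9 and between KRT10 and KRT14, and LOC769486 has only genes without a symbol beside it.

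Other parts of the cornifying program moved in both directions. Of 25 genes for the cornified envelope and barrier lipids 6 rose (1 to 7) and 6 fell (2 to 5), and the median was −0.31, that of all genes. There were 8 rises and 3 falls after median-of-ratios scaling. Ceramide synthases changed in opposite ways. CERS3, which makes the very long ceramides of the skin barrier, stood at 26.7 and 17.2 TPM and 82.7 and 83.6 TPM (log2 fold change 1.91, standard error 0.25, adjusted p = 0.00352). CERS2, the widely expressed ceramide synthase, stood at 166 and 195 TPM and 80.5 and 88.3 TPM (log2 fold change −1.09, standard error 0.11, adjusted p = 0.00138). Neither phase overlapped the other for either gene, and both calls held under every alternative. TGM2, a transglutaminase and the most abundant gene of the list, was not called (log2 fold change 0.15, adjusted p = 0.123). TGM2 was called higher after median-of-ratios scaling (0.49, adjusted p = 0.0249) and after quantile normalization (0.24, adjusted p = 0.0331). The secreted protease inhibitors PI3 and SPINT4 were near 0 TPM in early growth. Of the growth phases only late growth could thus carry them past the filter on the mean. PI3, an elastase inhibitor of barrier epithelia, was listed at 0 in both early growth libraries and stood at 14 and 10.8 TPM in late growth (adjusted p = 0.000796). SPINT4, a Kunitz-type inhibitor, stood at 0.264 and 0 TPM and 7.38 and 5.0 TPM (adjusted p = 0.00352). The median of the protease inhibitor list was −0.29. The list of protease inhibitors as a whole had 6 rises (1 to 7) and 12 falls (9 to 12) among 28, and 6 rises and 7 falls after median-of-ratios scaling, the steepest fall being that of SERPINF1, an antiangiogenic serpin made by fibroblasts, from 105 and 127 TPM to 3.92 and 3.97 TPM (log2 fold change −4.56, standard error 0.14, adjusted p = 3.15e-05).

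Junction genes moved in both directions. Among 29 genes of desmosomes, adherens and tight junctions 6 rose (4 to 7) and 8 fell (5 to 8), with 12 and 5 under median-of-ratios scaling. On the TPM scale 20.7% of this list rose and 27.6% fell, beside 5.24% and 28.4% of all genes, with a median of 0.06. JUP, the plakoglobin that links desmosomal cadherins to the cytoskeleton, stood at 370.0 and 383 TPM and 595 and 579 TPM (log2 fold change 0.64, standard error 0.06, adjusted p = 0.00115). PKP1, the plakophilin of suprabasal desmosomes, stood at 257 and 254 TPM and 375 and 410.1 TPM (log2 fold change 0.62, standard error 0.07, adjusted p = 0.00234). PKP2, another plakophilin, stood at 34.9 and 39.9 TPM and 10.3 and 10.7 TPM (log2 fold change −1.74, standard error 0.21, adjusted p = 0.00249). The plakophilins thus changed in opposite directions, and these 3 calls held under every alternative. CTNNB1, or beta-catenin, the most abundant junction gene, was not called (log2 fold change −0.16, adjusted p = 0.175). Of 9 connexins, the subunits of gap junctions, 6 fell (4 to 6) and none rose, with 5 falls and 1 rise under median-of-ratios scaling. Falls were 66.7% of the connexin list, beside 28.4% of all genes, and its median was −1.49. The steepest falls were those of GJA5 and GJA4, which are connexins of vessels. GJA5 went from 47.1 and 26.1 TPM to 0 in both late growth libraries and is itself in the endothelial marker list. GJA4 (log2 fold change −3.20, adjusted p = 0.000552) is not in that list. GJB6, a connexin of skin, was chosen after its values were seen and stood at 398 and 415 TPM in early growth and 143 and 146 TPM in late growth (log2 fold change −1.49, standard error 0.09, adjusted p = 0.000229). GJA1, the most abundant connexin, stayed near 1833 and 1942 TPM in early growth and 1903 and 1972 TPM in late growth, and was not called (adjusted p = 0.624). It was called higher after median-of-ratios scaling (0.38, adjusted p = 0.035) and lower after quantile normalization (−0.19, adjusted p = 0.0378).

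Rises outnumbered falls among the transcription factors of epithelia. Of 51 tested epithelial factors 11 rose (4 to 16) and 7 fell (2 to 8), and after median-of-ratios scaling 20 rose and 3 fell. The median of these factors was 0.14. EHF, an ETS factor of epithelia, stood at 39.4 and 49.8 TPM and 175 and 191 TPM (log2 fold change 2.02, standard error 0.20, adjusted p = 0.0013). KLF5, a factor of proliferating and differentiating epithelium, stood at 79.1 and 58 TPM and 139 and 146 TPM (log2 fold change 1.06, standard error 0.15, adjusted p = 0.00423). ZNF750, which acts downstream of TP63 in human keratinocyte differentiation, stood at 29.3 and 28.5 TPM and 53.1 and 58.6 TPM (log2 fold change 0.93, standard error 0.13, adjusted p = 0.00403). All 3 rose in every alternative, and for each the lower late growth library lay above the higher early growth library. FOXN1, the factor whose loss causes the hairless nude phenotype in mice, went from 0.843 and 0 TPM to 5.92 and 6.43 TPM (log2 fold change 2.40, standard error 0.39, adjusted p = 0.00692). FOXN1 was not called without late growth replicate 1 (adjusted p = 0.0612) or without late growth replicate 2 (adjusted p = 0.0652). KLF4, which drives barrier formation in mouse skin, fell from 102 and 118 TPM to 51.9 and 58.6 TPM (log2 fold change −0.98, standard error 0.12, adjusted p = 0.00258), also in every alternative. BARX2, a homeobox factor and the most abundant of the list, stood at 2846 and 2829 TPM and 2100.2 and 2175 TPM (log2 fold change −0.41, standard error 0.06, adjusted p = 0.00582). Its fall was not called under median-of-ratios scaling (adjusted p = 0.629) or without late growth replicate 1 (adjusted p = 0.0521) or without a variance trend (adjusted p = 0.064).

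**Figure D3:**
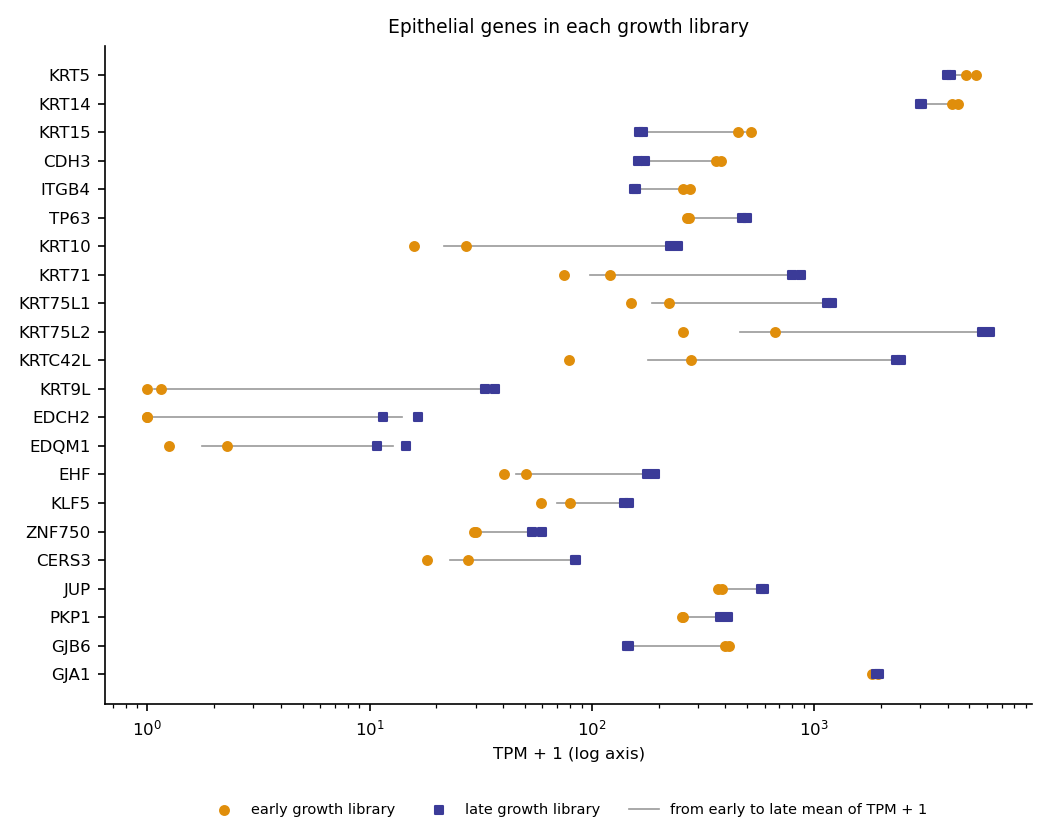
TPM + 1, on a log axis, of 22 epithelial genes in the 2 early growth libraries (orange circles) and the 2 late growth libraries (blue squares); the gray line joins the phase means. KRT15, CDH3, ITGB4 and GJB6 are lower in late growth, TP63 and the keratins from KRT10 to KRT9L are higher, and the points of GJA1 lie together.

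On the TPM scale most genes of the ribosome itself rose, a direction that quantile normalization did not keep. Of 75 cytosolic ribosomal proteins 51 rose (37 to 52) and 1 fell, with a median of 0.32, and together they took 23.2 and 24.9% of TPM in the early libraries and 31.2 and 29.9% in the late ones. Median-of-ratios scaling gave 65 rises. Quantile normalization, which forces the ranks of the most abundant genes onto the same values, gave 16 rises and 12 falls, and turned the list's median to −0.02, so the direction of this family holds in the units of TPM and not in ranks. RPS15A stood at 3297 and 3234 TPM and 5865 and 5785 TPM (log2 fold change 0.83, standard error 0.05, adjusted p = 0.000277), and RPL29 at 876 and 935 TPM and 1592 and 1589 TPM (log2 fold change 0.81, standard error 0.06, adjusted p = 0.000427). Both rose in every alternative. RPS12 stood at 5429 and 5381 TPM and 9157 and 8897 TPM (log2 fold change 0.74, standard error 0.04, adjusted p = 0.000223), and was not called after quantile normalization (adjusted p = 0.0799). RPS6, the most abundant of them, stood at 7572 and 7797 TPM and 9527 and 9051 TPM (log2 fold change 0.27, standard error 0.04, adjusted p = 0.00663), with no call after quantile normalization (adjusted p = 0.317) or without a variance trend (adjusted p = 0.146). Whether ribosomal protein genes have near-identical copies in this annotation was not examined. How reads shared between such copies would have been assigned is not stated in the sources at hand. Among 52 translation factors 18 rose (7 to 18) and 6 fell (3 to 8), with 26 rises and 2 falls after median-of-ratios scaling. The median of the translation factors was 0.04. EIF3H, a subunit of the initiation complex eIF3, stood at 489.7 and 449 TPM and 986 and 989 TPM (log2 fold change 1.07, standard error 0.06, adjusted p = 0.00022). EEF1D, a subunit of the elongation factor complex, stood at 2289 and 2484 TPM and 3726 and 3711 TPM (log2 fold change 0.64, standard error 0.05, adjusted p = 0.000747). EEF1A1, which brings aminoacyl-tRNA to the ribosome, went from 11054 and 11180.4 TPM to 16881 and 16743 TPM (log2 fold change 0.60, standard error 0.03, adjusted p = 0.000192), and was not called after quantile normalization (adjusted p = 1).

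Genes that make ribosomes, charge tRNAs or splice RNA had medians near that of all genes. For the tRNA synthetases the median was −0.28, and for splicing −0.22. Of 90 ribosome biogenesis genes 2 rose (2 to 4) and 34 fell (10 to 29), but the median was −0.33 and after median-of-ratios scaling 14 rose and 8 fell. RRP9, a component of the U3 particle that processes pre-rRNA, stood at 162 and 198 TPM and 63.4 and 64.7 TPM (log2 fold change −1.47, standard error 0.13, adjusted p = 0.00104). NSA2, an assembly factor of the large subunit, went the other way, from 599 and 602 TPM to 844 and 863 TPM (log2 fold change 0.51, standard error 0.05, adjusted p = 0.00163). Both calls held in every alternative. The mitochondrial ribosomal proteins had a median of −0.30, with 24 falls among 74 (1 to 19, the lowest without late growth replicate 2), 0 of which passed after median-of-ratios scaling, where 4 rose. Among 35 aminoacyl-tRNA synthetases and their partners 14 fell (5 to 16), 3 of them after median-of-ratios scaling. HARS2, the mitochondrial histidyl-tRNA synthetase, was one that fell throughout, from 25.7 and 28.2 TPM to 7.55 and 8.38 TPM (log2 fold change −1.64, standard error 0.19, adjusted p = 0.00241). In the splicing list, of 83 genes 29 fell (10 to 30) and none rose, with 6 falls and 13 rises after median-of-ratios scaling. DDX5, an abundant RNA helicase, stood at 1258 and 1234 TPM and 635 and 677 TPM (log2 fold change −0.93, standard error 0.06, adjusted p = 0.000277), and SRSF5, a splicing activator, at 88.2 and 118 TPM and 30.1 and 37.2 TPM (log2 fold change −1.58, standard error 0.20, adjusted p = 0.00301). Folding and secretion in the endoplasmic reticulum had 38 falls among 86 (16 to 32) and 9 after median-of-ratios scaling. The falls were 44.2% of that list, beside 28.4% of all genes, but its median of −0.31 was that of all genes. On the median-of-ratios scale 12 of its genes rose. SYVN1, a ubiquitin ligase that clears misfolded proteins from the endoplasmic reticulum, stood at 34.7 and 45.1 TPM and 12.8 and 11.3 TPM (log2 fold change −1.64, standard error 0.18, adjusted p = 0.00194).

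Mitosis genes fell in part and none rose on the TPM scale. Of 81 tested mitosis genes 30 fell (37.0% beside 28.4% of all genes), with a median of −0.58. The count was 5 without late growth replicate 2, 6 without late growth replicate 1 and 35 without resting replicate 1, and after median-of-ratios scaling 11 fell and 0 rose. Their share of TPM was 0.656 and 0.638% in the early libraries, 0.433 and 0.445% in the late ones and 0.0413 and 0.0409% at rest. KIFC1, a kinesin that focuses spindle poles, stood at 156 and 159 TPM and 42.6 and 38.7 TPM (log2 fold change −1.93, standard error 0.13, adjusted p = 0.000386). SGO2, a protector of centromere cohesion, stood at 12.1 and 10.9 TPM and 2.22 and 1.72 TPM (log2 fold change −2.08, standard error 0.22, adjusted p = 0.00181). Both fell under every alternative. CKS1B, the most abundant mitosis gene, was not called (log2 fold change −0.14, adjusted p = 0.48), nor was CDK1, the kinase that drives entry into mitosis, at 388 and 386 TPM and 261 and 281 TPM (log2 fold change −0.51, standard error 0.20, adjusted p = 0.099). CDK1 was called lower with only the 4 growth libraries in the fit (−0.51, adjusted p = 0.017), without resting replicate 1 (−0.51, adjusted p = 0.0196) and without resting replicate 2 (−0.51, adjusted p = 0.0201). In the DNA replication list 14 of 55 genes fell (4 to 15), 25.5% and so no more than among all genes, with a median of −0.44, and 3 rose and 3 fell after median-of-ratios scaling. POLA2, a subunit of the polymerase that primes replication, stood at 67.3 and 76.8 TPM and 25.8 and 25.6 TPM (log2 fold change −1.45, standard error 0.14, adjusted p = 0.00138), and GINS1, part of the replicative helicase, at 102 and 100.5 TPM and 40.1 and 33.4 TPM (log2 fold change −1.44, standard error 0.16, adjusted p = 0.00186). PCNA, the sliding clamp of the replication fork and the most abundant of the list, stood at 549 and 485 TPM and 492 and 499.9 TPM and was not called (adjusted p = 0.615). PCNA was called higher after median-of-ratios scaling (0.29, adjusted p = 0.0313).

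Regulators of G1 moved in both directions. Of 41 G1 cyclins, inhibitors and related regulators 11 rose and 6 fell (2 to 7), and 16 and 2 after median-of-ratios scaling. The list's median was −0.04, beside −0.31 for all genes. Fewer genes of the list were called as rises with either late growth library or early growth replicate 2 left out. BTG1, an antiproliferative gene and the most abundant of them, stood at 321 and 311 TPM and 405 and 407 TPM (log2 fold change 0.36, standard error 0.06, adjusted p = 0.00627). BTG1 was not called without a variance trend (adjusted p = 0.0719). GADD45A, which is induced by stress and growth arrest, stood at 32.3 and 38.9 TPM and 64.8 and 60.2 TPM (log2 fold change 0.80, standard error 0.15, adjusted p = 0.0109). GADD45A was not called without late growth replicate 1 (adjusted p = 0.0842) or without late growth replicate 2 (adjusted p = 0.0627). CDK2, the kinase of S phase entry, stood at 256 and 319 TPM and 149 and 145 TPM (log2 fold change −0.95, standard error 0.13, adjusted p = 0.00364). Its fall held under every alternative. DNA repair genes had 25 falls among 84 (3 to 27) and no rise, with 12 falls and 4 rises after median-of-ratios scaling. The falls made up 29.8% of the DNA repair list, close to the 28.4% of all genes. Its median was −0.43, beside −0.31 for all genes. PARP1, the most abundant DNA repair gene, was not called (log2 fold change 0.00, standard error 0.09). PARP1 was called higher after median-of-ratios scaling (0.34, adjusted p = 0.0261).

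**Figure D4:**
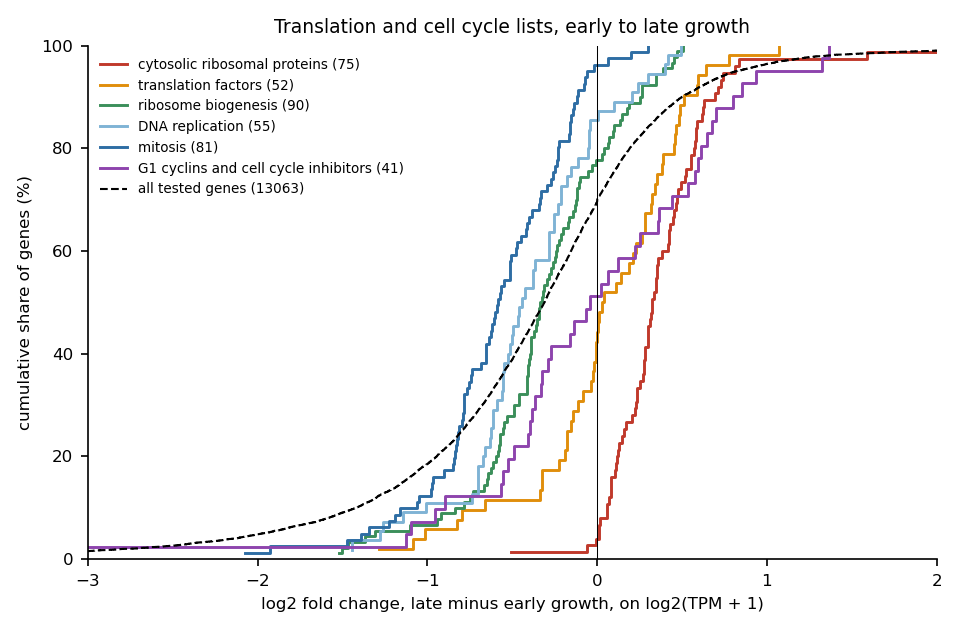
Cumulative share of genes (%) at or below each log2 fold change from early to late growth, for 6 lists and for all 13063 tested genes (dashed). The curve of cytosolic ribosomal proteins lies to the right of 0 for most of its length, that of translation factors also lies right of the dashed curve, and those of DNA replication and mitosis lie left of it through most of their length.

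In energy metabolism single genes rose and fell within the same pathway. In the glycolysis list 6 of 26 genes rose (2 to 7) and 7 fell (2 to 7), with 6 rises and 2 falls after median-of-ratios scaling. The glycolysis list had a median of −0.05. LDHA, which turns pyruvate into lactate, stood at 336 and 355 TPM and 579 and 566 TPM (log2 fold change 0.73, standard error 0.06, adjusted p = 0.000747). SLC2A1, the main glucose transporter of epithelia, stood at 97.9 and 94.6 TPM and 133 and 150.3 TPM (log2 fold change 0.55, standard error 0.09, adjusted p = 0.00745). SLC2A1 was not called without late growth replicate 2 (adjusted p = 0.0529). LDHA kept its call under every alternative. The respiratory chain list had 17 falls among 72 (8 to 20) and 7 after median-of-ratios scaling, and its median of −0.18 lay above that of all genes. COX6A1, a subunit of cytochrome c oxidase, stood at 970.3 and 1135 TPM and 528 and 469.9 TPM (log2 fold change −1.07, standard error 0.09, adjusted p = 0.000961), and CS, the citrate synthase that opens the tricarboxylic acid cycle, at 165 and 197 TPM and 97.9 and 84 TPM (log2 fold change −0.98, standard error 0.12, adjusted p = 0.003). MDH2, the most abundant gene of that cycle, was not called (log2 fold change 0.05, adjusted p = 0.652). MDH2 was called higher after median-of-ratios scaling (0.39, adjusted p = 0.0123).

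Genes of the hypoxia response rose in part. 7 of 32 rose (4 to 10) and 4 fell (2 to 6), and 13 and 3 after median-of-ratios scaling. The hypoxia list had a median of −0.09. BNIP3L, a receptor for the removal of mitochondria that is also active in keratinocyte maturation, stood at 44.9 and 37.5 TPM and 94 and 100.5 TPM (log2 fold change 1.23, standard error 0.12, adjusted p = 0.00149). NDRG1, a gene of hypoxia and differentiation, stood at 54.1 and 60.2 TPM and 96 and 109 TPM (log2 fold change 0.83, standard error 0.10, adjusted p = 0.00293). EGLN3, an oxygen-sensing prolyl hydroxylase, stood at 19.6 and 20.5 TPM and 39.9 and 45.9 TPM (log2 fold change 1.06, standard error 0.15, adjusted p = 0.00479). EGLN3 was not called without late growth replicate 2 (adjusted p = 0.0557). EPAS1, the hypoxia-inducible factor abundant in vessels, fell from 73 and 71.1 TPM to 3.91 and 5.87 TPM (log2 fold change −3.65, standard error 0.19, adjusted p = 0.000189), and the endothelial markers, 19 of 22, fell with it.

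Lipid and redox genes also moved in both directions. Of 29 cholesterol genes 4 rose (0 to 4) and 7 fell (1 to 6), and 7 and 1 after median-of-ratios scaling. The cholesterol list had a median of −0.23. HMGCS1, an early enzyme of the pathway, stood at 89.7 and 65.8 TPM and 157 and 169 TPM (log2 fold change 1.07, standard error 0.23, adjusted p = 0.0174), and IDI1, which follows it, at 74.9 and 89.6 TPM and 134 and 138 TPM (log2 fold change 0.73, standard error 0.12, adjusted p = 0.00667). HMGCS1 was not called without early growth replicate 2 (adjusted p = 0.0716), without late growth replicate 1 (adjusted p = 0.0961) or without late growth replicate 2 (adjusted p = 0.114), and IDI1 without late growth replicate 1 (adjusted p = 0.0541) or without late growth replicate 2 (adjusted p = 0.0593). In redox defence, TXN, or thioredoxin, stood at 781 and 929 TPM and 1365 and 1280.1 TPM (log2 fold change 0.63, standard error 0.09, adjusted p = 0.00458). GPX3, a secreted glutathione peroxidase, stood at 253 and 226 TPM and 23.3 and 20.6 TPM (log2 fold change −3.39, standard error 0.10, adjusted p = 2.28e-05), with 809 and 826 TPM in the resting libraries. In the redox list 38.9% of genes fell, beside 28.4% of all genes, but the median was −0.26, beside −0.31. That list had 2 rises (1 to 6) and 21 falls (12 to 22) among 54, with 9 and 12 after median-of-ratios scaling.

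Among the signaling genes named here, several of the steepest falls were those of secreted factors. After median-of-ratios scaling rises outnumbered falls in the FGF, IGF, EGF receptor, WNT and NOTCH lists, while 13.2% of all genes rose and 15.0% fell. For NOTCH the margin was 4 against 3 genes, and quantile normalization gave 3 rises and 5 falls. In FGF and ERK signaling, which drives growth of epithelial progenitors, 4 of 41 genes rose (3 to 12) and 10 fell (5 to 11), while the median was 0.10, and the counts were 11 rises and 7 falls after median-of-ratios scaling. FGF7, a ligand that mesenchyme sends to epithelium, stood at 17.3 and 28.9 TPM and 0.515 and 1.14 TPM (log2 fold change −3.70, standard error 0.32, adjusted p = 0.000905). FGFR1, a receptor of the family, stood at 101 and 89 TPM and 32.4 and 34.4 TPM (log2 fold change −1.48, standard error 0.11, adjusted p = 0.000476). SPRY1, a feedback inhibitor that the pathway induces, stood at 244 and 289.9 TPM and 46.5 and 48.5 TPM (log2 fold change −2.46, standard error 0.11, adjusted p = 0.000105). These falls held under every alternative. Other inhibitors of the same pathway rose: SPRED2 stood at 38.7 and 39 TPM and 76.7 and 86.8 TPM (log2 fold change 1.05, standard error 0.11, adjusted p = 0.00147), and DUSP1, a phosphatase of MAP kinases, at 41.8 and 49.7 TPM and 91.9 and 90.3 TPM (log2 fold change 0.98, standard error 0.11, adjusted p = 0.00208). FGFBP2, a secreted carrier of the family, went from 37.7 and 8.67 TPM to 134 and 139 TPM (log2 fold change 2.83, standard error 0.66, adjusted p = 0.0219). FGFBP2 was not called without late growth replicate 1 (adjusted p = 0.124), without late growth replicate 2 (adjusted p = 0.124), without resting replicate 1 (adjusted p = 0.058), without resting replicate 2 (adjusted p = 0.058) or with only the 4 growth libraries in the fit (adjusted p = 0.0569). FGFBP1, the most abundant gene of the list, stood at 752 and 690.0 TPM and 769 and 776 TPM and was not called (adjusted p = 0.309). FGFBP1 was called higher after median-of-ratios scaling (0.44, adjusted p = 0.00859). No call was made for FGFR2 (log2 fold change −0.06, standard error 0.14, adjusted p = 0.773) or FGF9 (1.04, standard error 0.87, adjusted p = 0.401). FGF10, a mesenchymal ligand, fell from 3.41 and 1.44 TPM to 0.0921 and 0 TPM (log2 fold change −1.65, standard error 0.41, adjusted p = 0.0269). FGF10 was not called without late growth replicate 1 (adjusted p = 0.126) or without late growth replicate 2 (adjusted p = 0.14). FGFR3 fell from 6.88 and 6.66 TPM to 1.78 and 2.08 TPM (log2 fold change −1.41, standard error 0.20, adjusted p = 0.004), a fall not called after quantile normalization (adjusted p = 0.0535), and FGF18 (adjusted p = 0.589) and FGF2 (adjusted p = 0.769) stayed below 5 TPM in the growth libraries and were not called. FGF18 was called higher without early growth replicate 1 (1.76, adjusted p = 0.0126). FGF1 and FGF23 were listed at 0 in all 4 growth libraries.

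A few secreted IGF genes fell steeply, while the list as a whole was near the background. Of 37 genes of IGF and insulin signaling 9 fell (4 to 10), 24.3% beside 28.4% of all genes, and none rose, against 4 falls and 8 rises after median-of-ratios scaling. IGF2, a growth factor, stood at 21.3 and 31.6 TPM and 0.908 and 0.733 TPM (log2 fold change −3.89, standard error 0.26, adjusted p = 0.0004). IGFBP5, which the study follows by name, stood at 31.7 and 44.6 TPM and 24.4 and 22.4 TPM (log2 fold change −0.66, standard error 0.20, adjusted p = 0.0463), and its call was lost under 14 of the 19 alternatives, median-of-ratios scaling included (adjusted p = 0.318). IGFBP4, a binding protein that holds the ligand, stood at 89.5 and 84.7 TPM and 27.6 and 24.6 TPM (log2 fold change −1.70, standard error 0.11, adjusted p = 0.000331), and IGFBP7, a related secreted protein, at 272 and 347 TPM and 104 and 102 TPM (log2 fold change −1.57, standard error 0.14, adjusted p = 0.00107). In the resting libraries they stood at 16.6 and 14, 215 and 192 and 582 and 479.7 TPM, in this order of IGF2, IGFBP4 and IGFBP7. The fibroblast markers, 30 of 30 of which fell, also took a larger share there, 0.574 and 0.58% of TPM, and their part in the falls of FGF7 and of the IGF genes was not tested. In EGF receptor signaling, 2 of 19 genes rose (1 to 6) and 5 fell (0 to 5), with 4 rises and 0 falls after median-of-ratios scaling. The EGF receptor list had a median of −0.07. AREG, a ligand made by epithelium itself, stood at 3.76 and 3.84 TPM and 18.8 and 17.8 TPM (log2 fold change 2.01, standard error 0.21, adjusted p = 0.0017) and rose under every alternative. EGFR, its receptor, stood at 70.2 and 46.7 TPM and 85.9 and 104 TPM (log2 fold change 0.71, standard error 0.20, adjusted p = 0.0398). EGFR was not called without early growth replicate 2 (adjusted p = 0.0763), without late growth replicate 1 (adjusted p = 0.107), without late growth replicate 2 (adjusted p = 0.211), without resting replicate 1 (adjusted p = 0.103), without resting replicate 2 (adjusted p = 0.103), without the filter on low values (adjusted p = 0.0705), without a variance trend (adjusted p = 0.0804), with only the 4 growth libraries in the fit (adjusted p = 0.103) or with a replicate block (adjusted p = 0.0586).

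BMP and TGF-beta signaling, which in skin restrains growth and shapes differentiation, had 22 falls (14 to 24) and 5 rises (0 to 5) among 53 genes, and 16 and 8 after median-of-ratios scaling. The falls were 41.5% of the BMP and TGF-beta list, beside 28.4% of all genes, and its median was −0.63, beside −0.31. The steepest fall of the list was that of ENG (log2 fold change −3.86, adjusted p = 0.000154), a gene known from endothelium. BMP4, a ligand of mesenchyme and papilla, stood at 46.8 and 29.9 TPM and 3.95 and 3.54 TPM (log2 fold change −3.02, standard error 0.23, adjusted p = 0.000562). GREM1, a BMP antagonist, stood at 11.1 and 18.1 TPM and 0.22 and 0.397 TPM (log2 fold change −3.54, standard error 0.32, adjusted p = 0.00109), so ligand and antagonist fell together. BMP3, an atypical ligand that opposes other BMPs, stood at 0.578 and 0 TPM and 3.64 and 2.53 TPM (log2 fold change 1.69, standard error 0.32, adjusted p = 0.0113), and FSTL3, an antagonist of activin, at 1.58 and 0 TPM and 10.7 and 8.74 TPM (log2 fold change 2.73, standard error 0.46, adjusted p = 0.00745). BMP3 was not called without late growth replicate 1 (adjusted p = 0.0935) or without late growth replicate 2 (adjusted p = 0.056), nor FSTL3 without late growth replicate 1 (adjusted p = 0.0707) or without late growth replicate 2 (adjusted p = 0.0568). ID2, an early target of the pathway and the most abundant gene of the list, stood at 515 and 527 TPM and 543 and 528 TPM and was not called (adjusted p = 0.701). ID2 was called higher after median-of-ratios scaling (0.38, adjusted p = 0.0376). In WNT signaling 23 of 70 genes fell (9 to 24) and 5 rose (0 to 9), and 12 and 16 after median-of-ratios scaling. On the TPM scale 32.9% of the WNT list fell and 7.14% rose, beside 28.4% and 5.24% of all genes. Its median of −0.24 lay close to the −0.31 of all genes. The steepest falls of the WNT list were of secreted inhibitors that bind WNT ligands. Fibroblast markers fell in the same libraries, 30 of 30. Their part in the falls of BMP4, GREM1 and these WNT inhibitors was not tested. FRZB stood at 34.9 and 28.2 TPM and 3.34 and 3.14 TPM (log2 fold change −2.93, standard error 0.17, adjusted p = 0.000241), SFRP2 at 33.1 and 35.8 TPM and 3.4 and 4.51 TPM (log2 fold change −2.85, standard error 0.23, adjusted p = 0.000709), and SFRP1 at 122 and 116 TPM and 21.2 and 21.5 TPM (log2 fold change −2.42, standard error 0.11, adjusted p = 0.000105). TCF7, a transcription factor that carries the WNT signal, rose from 12.4 and 9.71 TPM to 34.6 and 39.3 TPM (log2 fold change 1.66, standard error 0.29, adjusted p = 0.00846). TCF7 was not called without late growth replicate 1 (adjusted p = 0.0597) or without late growth replicate 2 (adjusted p = 0.0725). WIF1, a further WNT inhibitor, stood at 12.3 and 5.97 TPM and 13.6 and 14 TPM and was not called (adjusted p = 0.185). WIF1 was called higher after quantile normalization (1.01, adjusted p = 0.0297) and without early growth replicate 1 (1.09, adjusted p = 0.0148).

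For NOTCH, the pathway of contact between neighboring cells, the targets HES1 and HEY2 fell, while the ligands JAG2 and DLL1 were not called. 13 of 34 genes fell (4 to 14) and 1 rose (0 to 2), with 3 falls and 4 rises after median-of-ratios scaling. The falls were 38.2% of the NOTCH list, beside 28.4% of all genes, and its median was −0.49, beside −0.31. HES1, a classic target, stood at 13.2 and 11.9 TPM and 4.2 and 2.58 TPM (log2 fold change −1.65, standard error 0.24, adjusted p = 0.00456), and HEY2, a target known from vessels, at 19 and 15.5 TPM and 2.44 and 2.34 TPM (log2 fold change −2.42, standard error 0.26, adjusted p = 0.00187). The ligands JAG2 (log2 fold change −0.19, standard error 0.09, adjusted p = 0.14) and DLL1 (−0.25, standard error 0.14, adjusted p = 0.232) were not called. NOTCH1, a receptor, stood at 65.1 and 65.9 TPM and 42.4 and 43.1 TPM (log2 fold change −0.60, standard error 0.10, adjusted p = 0.00787), and was not called under median-of-ratios scaling (adjusted p = 0.124) or quantile normalization (adjusted p = 0.0741), and also without late growth replicate 1 (adjusted p = 0.0595) or without late growth replicate 2 (adjusted p = 0.0541). YAP1, the effector of the Hippo pathway, stood at 103 and 99.3 TPM and 109 and 125 TPM and was not called on the TPM scale (log2 fold change 0.20, adjusted p = 0.152). YAP1 was called higher after median-of-ratios scaling (0.54, adjusted p = 0.00958) and after quantile normalization (0.46, adjusted p = 0.0142). CTGF, a target of YAP1 that fibroblasts also secrete, fell from 69.5 and 56.5 TPM to 4.37 and 3.9 TPM (log2 fold change −3.63, standard error 0.14, adjusted p = 7.55e-05). Of 19 hedgehog genes 8 fell (4 to 10) and 1 rose (0 to 2), with 4 rises and 5 falls after median-of-ratios scaling. Falls made up 42.1% of the hedgehog list, and its median was −0.37. GAS1, a coreceptor, stood at 159 and 179 TPM and 66.8 and 67.1 TPM (log2 fold change −1.32, standard error 0.11, adjusted p = 0.000783), and GLI2, a transcription factor of the pathway, at 18.6 and 10.1 TPM and 35 and 33.6 TPM (log2 fold change 1.26, standard error 0.28, adjusted p = 0.0184). The rise of GLI2 was not called without late growth replicate 1 (adjusted p = 0.118), without late growth replicate 2 (adjusted p = 0.105), without resting replicate 1 (adjusted p = 0.0587), without resting replicate 2 (adjusted p = 0.0591) or with only the 4 growth libraries in the fit (adjusted p = 0.0593).

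Among genes of retinoids and hormones 16 fell of 40 (10 to 19), and 11 fell after median-of-ratios scaling. The falls were 40.0% of that list, beside 28.4% of all genes, and its median was −0.49, beside −0.31. On the TPM scale 4 of its genes rose, and after median-of-ratios scaling also 4. RARRES1 and RARRES2 are genes induced by retinoic acid. RARRES1 stood at 149 and 144 TPM and 19.1 and 15.7 TPM (log2 fold change −3.01, standard error 0.12, adjusted p = 6.69e-05), and RARRES2, which encodes the secreted chemerin, at 84 and 77.3 TPM and 5.34 and 3.9 TPM (log2 fold change −3.87, standard error 0.19, adjusted p = 0.000151). SRD5A2, the enzyme that makes dihydrotestosterone, stood at 40.6 and 35.5 TPM and 3.67 and 3.16 TPM (log2 fold change −3.14, standard error 0.19, adjusted p = 0.000271). CYP24A1, which degrades active vitamin D and is itself induced by it, went up from 8.4 and 5.5 TPM to 32.4 and 34.4 TPM (log2 fold change 2.14, standard error 0.22, adjusted p = 0.00161). All 4 calls held under every alternative, and the receptor gene RARA was not called (log2 fold change −0.10, adjusted p = 0.683). Fibroblast markers fell in the same libraries, 30 of 30, and their part in the falls of RARRES1, RARRES2 and SRD5A2 was not tested.

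Immediate early genes, which respond within minutes to growth factors and to tissue handling, moved in both directions: 7 of 23 rose (5 to 8) and 5 fell (3 to 7), with 9 rises and 3 falls after median-of-ratios scaling. The median of these genes was −0.0005. EGR1 stood at 60.4 and 68.8 TPM and 348 and 354 TPM (log2 fold change 2.43, standard error 0.08, adjusted p = 4.62e-05). FOS stood at 25.3 and 22.5 TPM and 87 and 85.7 TPM (log2 fold change 1.81, standard error 0.09, adjusted p = 0.000139), and in the resting libraries at 991 and 1020.3 TPM. KLF2, a gene of vessels and immune cells, fell from 46.5 and 38.2 TPM to 12 and 14.3 TPM (log2 fold change −1.61, standard error 0.15, adjusted p = 0.00105). All 3 calls held under every alternative. The part of tissue handling in these values was not tested.

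**Figure D5:**
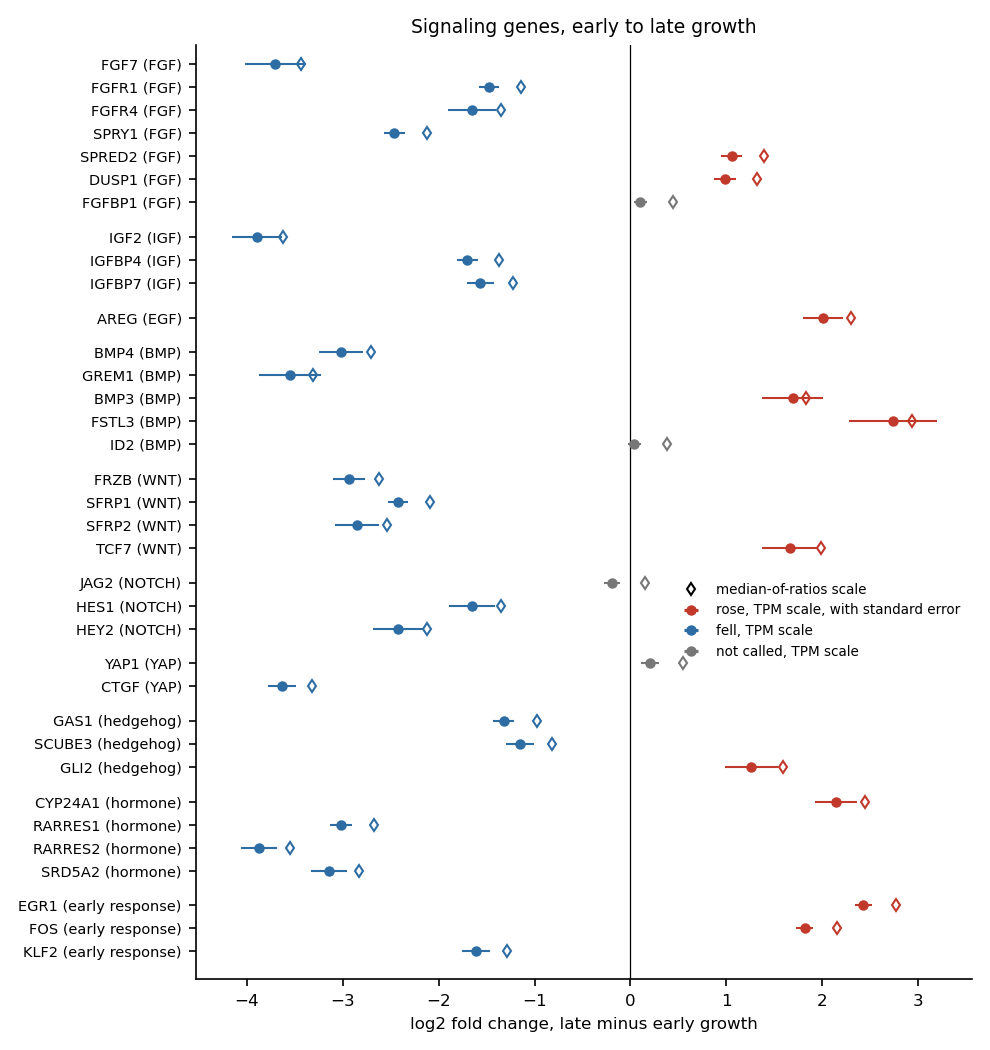
Log2 fold change from early to late growth of 35 signaling genes, with the standard error, on the TPM scale (filled) and after median-of-ratios scaling (open diamonds); red rose, blue fell, gray not called. Ligands, carriers and secreted inhibitors such as FGF7, IGF2, BMP4 and FRZB lie far to the left, AREG, EGR1 and CYP24A1 to the right, and the open diamonds sit slightly to the right of the filled points throughout.

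Among the steepest falls outside the marker lists of other cell types were several secreted signals. PENK, which encodes the precursor of enkephalin peptides, stood at 1024 and 1094 TPM in early growth and 12.3 and 11.8 TPM in late growth (log2 fold change −6.34, standard error 0.08, adjusted p = 2.39e-06), with 309 and 317 TPM in the resting libraries. PTN, a heparin-binding growth factor, stood at 261 and 245 TPM and 7.21 and 7.29 TPM (log2 fold change −4.95, standard error 0.11, adjusted p = 1.33e-05). CXCL12, a chemokine of stromal cells, stood at 93.3 and 50.0 TPM and 1.5 and 2.82 TPM (log2 fold change −4.49, standard error 0.37, adjusted p = 0.000747). For each of them both early growth libraries lay far above both late growth libraries. CXCL14, another chemokine, was listed at 0 in both late growth libraries after 48.6 and 81.7 TPM in early growth (adjusted p = 0.000175). The same held for PTGDS, a prostaglandin synthase, with 35.5 and 57.6 TPM in early growth (adjusted p = 0.0001). ASIP, the agouti signaling protein that steers pigment type and is also made in dermis, stood at 24.8 and 44.5 TPM in early growth and was listed at 0 in late growth and at 0 in both resting libraries (adjusted p = 0.000449). ENG, PODXL and ECSCR, known from endothelium, belong to the same 12 steepest falls by the rule, with log2 fold changes of −3.86, −3.57 and −3.55, as do ABCC3 (−3.93), GGT5 (−3.86), THRSPB (−3.66) and the microRNA gene MIR6615 (−3.88). All of them fell under every alternative. Markers of fibroblasts and endothelium fell in the same libraries, and their part in these falls was not tested.

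Guidance, channel and patterning genes fell more often than they rose, but so did all tested genes (28.4% fell and 5.24% rose). The list medians were −0.41 for guidance genes, −0.66 for ion channels and −0.52 for homeobox genes, beside −0.31 for all genes. The guidance list thus lay closest to the bulk. Of 53 guidance ligands and receptors 19 fell (10 to 18), and 14 fell and 6 rose after median-of-ratios scaling. NTN1, a secreted guidance cue, went from 5.28 and 4.17 TPM to 0 in both late growth libraries (adjusted p = 0.00338). Ion channels had 39 falls among 97 (15 to 45), 28 after median-of-ratios scaling, led by P2RX1 (38 and 25.2 TPM and then 0 in both) and KCNMB1 (log2 fold change −4.29, adjusted p = 0.00039), channel genes of smooth muscle. KCNMB1 is itself in the smooth muscle marker list. That list stood at 0.477 and 0.382% of TPM in the early libraries and 0.137 and 0.148% in the late ones. Its part in these falls was not tested. CLIC4, the most abundant channel gene, was not called (log2 fold change 0.24, adjusted p = 0.0853). CLIC4 was called higher after median-of-ratios scaling (0.58, adjusted p = 0.00569) and after quantile normalization (0.45, adjusted p = 0.0187). Among 50 HOX and other homeobox genes, which give cells their position in the body, 19 fell (9 to 19) and 2 rose (0 to 8), with 5 rises and 13 falls after median-of-ratios scaling. PRRX1 and HOXC10 fell most, PRRX1 from 52.4 and 59.6 TPM to 2.11 and 1.69 TPM (log2 fold change −4.30, standard error 0.14, adjusted p = 3.92e-05) and HOXC10 from 14.7 and 20.5 TPM to 0.703 and 0 TPM (log2 fold change −3.82, standard error 0.32, adjusted p = 0.00082). PRRX1 is itself a fibroblast marker. HOXA5 was one of the rises, from 53.8 and 53.8 TPM to 107 and 104 TPM (log2 fold change 0.96, standard error 0.15, adjusted p = 0.00655). HOXA5 was not called without late growth replicate 1 (adjusted p = 0.0593) or without late growth replicate 2 (adjusted p = 0.0538). MEIS2, a HOX cofactor and the most abundant of the list, stood at 165 and 168 TPM and 97.6 and 106 TPM (log2 fold change −0.70, standard error 0.09, adjusted p = 0.00293).

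Several of the steepest rises lay outside the keratin and corneous lists. SELENBP1L3, related to the selenium-binding protein SELENBP1, stood at 4.57 and 6.45 TPM and 71.5 and 70.5 TPM (log2 fold change 3.48, standard error 0.24, adjusted p = 0.000418), and rose in every alternative. HEPHL1, a copper-dependent ferroxidase whose loss in mammals makes hair brittle, stood at 0.928 and 5.47 TPM and 40.5 and 42 TPM (log2 fold change 3.58, standard error 0.56, adjusted p = 0.00598). SYT8, a synaptotagmin, stood at 0.815 and 3.65 TPM and 29.6 and 28.6 TPM (log2 fold change 3.37, standard error 0.55, adjusted p = 0.00667). HEPHL1 and SYT8 rose from below 6 TPM in both early growth libraries. HEPHL1 was not called without late growth replicate 1 (adjusted p = 0.0576) or without late growth replicate 2 (adjusted p = 0.058), nor SYT8 without late growth replicate 1 (adjusted p = 0.0636) or without late growth replicate 2 (adjusted p = 0.0602). NRSN1, a vesicle protein of neurons, went from 7.8 and 1.34 TPM to 25.9 and 31.9 TPM (log2 fold change 2.71, standard error 0.58, adjusted p = 0.0167). NRSN1 was not called without late growth replicate 1 (adjusted p = 0.0944), without late growth replicate 2 (adjusted p = 0.114), without resting replicate 1 (adjusted p = 0.0612), without resting replicate 2 (adjusted p = 0.0614) or with only the 4 growth libraries in the fit (adjusted p = 0.0615). TUBA4A, an alpha-tubulin, stood at 22.1 and 23.8 TPM and 52 and 53.3 TPM (log2 fold change 1.16, standard error 0.12, adjusted p = 0.00165) and rose throughout. ACTB, the most abundant cytoskeletal gene, stood at 4264 and 4505 TPM and 4242 and 4312 TPM and was not called (adjusted p = 0.593). ACTB was called lower after quantile normalization (−0.45, adjusted p = 0.00324).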

How the data were processed

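RNA from papilla ectoderm was sequenced as single reads on an Illumina HiSeq instrument, and the authors deposited 1 table of TPM per gene made with StringTie on GRCg6a. Neither an aligner nor a depth was found in the labels or methods. TPM keeps no depth, so no count test was run. The table holds 23724 identifiers, 15389 with a symbol, 8314 LOC numbers and 21 that a spreadsheet had turned into date numbers. Columns were matched to samples by name, and the groups are the labelled phases. limma 3.58.1 in R 4.3.3 fitted log2(TPM + 1) of 13063 genes with a mean above 1 TPM, as 3 phase means over all 6 libraries without a block, with eBayes and a variance trend, followed by Benjamini-Hochberg adjustment. The contrast was late minus early growth. Fold changes of low genes are understated on this scale.

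Genes and lists were chosen with earlier results of these data known. Named are the 12 largest rises and falls of called genes with a symbol, above 0 in all 4 growth libraries, without overlap and outside the marker lists (for falls, with a resting mean under 0.5 of the early mean), the 3 most abundant genes at 0 in 1 growth phase only, up to 3 called members per direction and the most abundant member of each of 62 lists (the 3 most abundant of a marker list), the identity markers, and genes the study follows by name; a part of these is described, and some are not reported here. Alternatives were other pseudocounts, filters, scalings, thresholds, models, a replicate block and leaving out each library.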

Additional observations from a re-analysis of the deposited data

How the results depend on the processing

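Median-of-ratios scaling gave 1728 rises and 1965 falls (46.8% of calls higher, beside 15.6% on the TPM scale), and quantile normalization 1582 and 1812 (46.6%). Of the calls on the TPM scale, quantile normalization kept 633 rises and 1790 falls. With only the 4 growth libraries in the fit, 452 genes rose. At an adjusted p under 0.01 and a log2 fold change above 2 in size, 85 rose and 519 fell, and at 0.05 and 1, 259 and 1965. With 1 library left out, 230 to 1588 genes rose and 1499 to 3893 fell. Under the other alternatives run (pseudocounts, filters, rescaling without stroma lists or without rRNA genes, robust moderation, no variance trend, library weights) the counts stayed within 1.5 times those given. A replicate block gave 547 rises and 3153 falls. Across genes, deviations of same-numbered libraries had an r of −0.0289 between early and late, 0.00830 between early and resting, and 0.0149 between late and resting. With 2 libraries per phase these values cannot show whether same-numbered libraries share a bird or a day. The block ended the calls of 2 of the genes named in this text, EGFR and IGFBP5. Of 140 named genes called, 105 kept their call under every alternative, and 170 rises and 1161 falls of all genes did so.

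Relative to all genes, list medians on the log2 scale changed sign as follows, with the cause not tested: the median of cytosolic ribosomal proteins turned −0.048 after quantile normalization, that of ribosome biogenesis turned 0.015 after median-of-ratios scaling and 0.0024 at a pseudocount of 0.1 and ranged from −0.078 to 0.067 with 1 library left out, that of pre-mRNA splicing turned −0.065 after quantile normalization and ranged from −0.045 to 0.17 with 1 library left out, that of respiratory chain and ATP synthase turned −0.046 after quantile normalization and ranged from −0.0033 to 0.24 with 1 library left out. No called gene named in this text changed sign while keeping its call, and the other genes were not examined for this. Signs of small log2 fold changes turned after median-of-ratios scaling ACTB (0.31), CKS1B (0.20), CTNNB1 (0.18), DLL1 (0.086), EPCAM (0.29), FGFR2 (0.28), ITGA6 (0.0056), JAG2 (0.15), KRT5 (0.0082), PCNA (0.29), RARA (0.24) and S100A11 (0.20), after quantile normalization CKS1B (0.042), DLL1 (0.052), EPCAM (0.056), FGFR2 (0.15), GJA1 (−0.19), JAG2 (0.011), MT4L (−0.16), PCNA (0.061), RARA (0.15) and RPS6 (−0.13), after rescaling without the stroma lists PARP1 (−0.010). With 1 library left out, the sign turned in at least 1 of the 6 fits for ACTB (−0.075 to 0.0042), CKS1B (−0.29 to 0.0062), EPCAM (−0.13 to 0.024), FGF18 (−0.62 to 1.76), FGF2 (−0.25 to 0.61), FGFR2 (−0.25 to 0.13), GJA1 (−0.0036 to 0.080), MDH2 (−0.040 to 0.14), PARP1 (−0.086 to 0.089), PCNA (−0.15 to 0.034) and RARA (−0.21 to 0.015), with their ranges. Depth is unknown, so no detection limit can be given, and exact 0 values may be failed estimates. The 2 early growth libraries differed most in them: 124 tested genes were at 0 in replicate 1 and 814 in replicate 2. Genes above 1 TPM numbered 13334 and 12282 there. In late growth 546 and 577 tested genes were at 0. Rising genes such as EDCH3, EDCH4, FOXN1, FSTL3 and BMP3 were at 0 in early growth replicate 2 but not in replicate 1.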

Other observations

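Metallothioneins, small metal-binding proteins, were among the most abundant transcripts and were chosen after their values were seen. MT4L stood at 5768 and 5946 TPM in early growth, 8189 and 6823 TPM in late growth and 1375 and 1405 TPM in the resting libraries, and MT3 at 2699 and 2987, 4683 and 4099 and 1161 and 1108 TPM. From early to late growth the log2 fold change was 0.35 for MT4L (standard error 0.09, adjusted p = 0.0251 by limma) and 0.63 for MT3 (standard error 0.08, adjusted p = 0.00345). After quantile normalization MT4L turned lower (−0.16) and was not called (adjusted p = 0.0547), and its call was lost under 10 of the 19 alternatives, among them without early growth replicate 1 (adjusted p = 0.0925), without early growth replicate 2 (adjusted p = 0.0753), without late growth replicate 1 (adjusted p = 0.0568), without resting replicate 1 (adjusted p = 0.0797) and without resting replicate 2 (adjusted p = 0.08). Both late growth libraries lay above both early growth libraries for each gene.

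Heat shock genes without a common direction included HSPB8, a small chaperone, and its partner BAG3, which together clear misfolded proteins. HSPB8 stood at 106 and 115 TPM in early growth and 179 and 172 TPM in late growth (log2 fold change 0.66, standard error 0.08, adjusted p = 0.00297). BAG3 stood at 68.1 and 76.7 TPM and 108 and 119 TPM (log2 fold change 0.64, standard error 0.10, adjusted p = 0.0056). HSPB9, another small heat shock gene, stood at 604 and 613 TPM and 256 and 218 TPM (log2 fold change −1.36, standard error 0.09, adjusted p = 0.000318). Of 22 tested circadian clock genes 1 rose and 5 fell, 22.7% beside 28.4% of all genes. The list's median was 0.05, beside −0.31 for all genes, and after median-of-ratios scaling 5 rose and 3 fell. CRY2 and TIMELESS were among the falls, CRY2 from 126 and 144 TPM to 71.9 and 73.8 TPM (log2 fold change −0.88, standard error 0.10, adjusted p = 0.00233) and TIMELESS from 47.2 and 44.6 TPM to 20.1 and 20.3 TPM (log2 fold change −1.14, standard error 0.12, adjusted p = 0.00164). These 5 calls held under every alternative.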
